A study of Mus musculus with 6 samples.

Results

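Integrins, laminins and the linker proteins of the basement membrane were described in the heart across a diet comparison. The genes were taken by name from the table of all samples, as every protein-coding gene of the integrin alpha family, the integrin beta family and the laminin alpha, beta and gamma families, plus Nid1, Nid2, Hspg2, Agrn and Dag1. This gave 42 of 23808 genes, made up of 18 integrin alpha chains, 8 integrin beta chains, 11 laminin chains and 5 linkers and receptors. The rule uses names and no measured value, but it was set with earlier results of these data known. The libraries were mRNA-seq libraries of heart tissue, taken from female wild-type mice that ate normal chow (NC) or a high-fat diet (HFD) between 4 and 12 weeks of age, with 3 libraries for each diet. All 6 libraries are of one genotype, and the labels name no other treatment, and neither the strain nor the make-up of the diets. Whether the libraries of a diet came from different animals is not stated, so a p-value here reflects only library-to-library spread, possibly technical.

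A basement membrane is the thin sheet of matrix that wraps each cardiomyocyte and underlies the endothelium of every vessel. Laminins are trimers of an alpha, a beta and a gamma chain that assemble into a network on the cell surface, and nidogens, perlecan and agrin tie that network to collagen IV and to the cell. Integrins, each an alpha chain paired with a beta chain, and dystroglycan are the receptors that hold the cell to laminin and connect it to the cytoskeleton, which in the heart carries contractile force sideways out of the myocyte.

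Values were FPKM, which divide the fragments of a gene by its length and by the library's total, so levels of different genes can be set side by side. The summed FPKM ranged from 576334 in HFD 1 to 739406 in NC 1, and the number of reads behind a value is unknown. In HFD 1, 4 mitochondrially encoded genes were listed at 0 that were above 1000 FPKM in each of the other libraries, and 33.0% of all tested genes had their lowest value there. All 12 genes of a list of cardiomyocyte markers were tested, and together they reached 34967 to 50849 FPKM. The summed level of 7 atrial markers ran from 358 FPKM in NC 2 to 14099 FPKM in NC 3 within one diet. Differences are HFD minus NC on the log2(FPKM + 1) scale, which understates changes of low genes, and were tested with limma over the 11456 genes whose FPKM averaged 1 or more across the libraries.

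Of the 42 genes, 25 reached that level and were tested, and none of them passed the test between the diets. The tested genes were 9 integrin alpha chains, 4 integrin beta chains, 7 laminin chains and all 5 linkers and receptors. With limma and Benjamini-Hochberg adjustment over all tested genes 0 of the 25 passed an adjusted p of 0.05, against a background of 0% of all tested genes, and the smallest adjusted p was 0.9998. At an unadjusted p of 0.05 there were 0 of 25 as well, where the share over all tested genes was 3.62% (1.32% with higher and 2.30% with lower estimates on HFD). In none of the 25 did the libraries of one diet all lie above or below those of the other, against 8.13% of all tested genes (3.25% with HFD above and 4.88% with HFD below). On HFD 13 of the 25 had a lower and 12 a higher estimate (52.0% lower, against 53.1% of all tested genes), with a median log2 fold change of −0.011 beside −0.019 over all tested genes. With libraries scaled to the same FPKM sum without mitochondrially encoded genes, that split was 9 lower and 16 higher, and 40.25% of all tested genes were lower. Estimates were higher on HFD in 7 of 9 integrin alpha chains, 1 of 4 integrin beta chains, 2 of 7 laminin chains and 2 of 5 linkers. Under the 3 other scalings these counts were 7 to 8, 1, 2 to 3 and 3 to 4. The median size of the change regardless of sign was 0.13 for these genes and 0.15 for all tested genes.

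The absence of a call is not evidence of equal levels, and the intervals give what the libraries allow. The 95% interval of the difference lay within −1 and 1 on the log2(FPKM + 1) scale in 22 of the 25 genes. The widest bounds were 1.24 for Agrn, 1.21 for Lama5 and −1.07 for Itga2b. That scale narrows the intervals of low genes, so the count of 22 is no bound on their fold change in FPKM. With 0.1 added in place of 1, the SE rose from 0.29 to 0.50 for Itga8 and from 0.24 to 0.41 for Itgb2. The median standard error was 0.24 both for these genes and for all tested genes.

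**Figure D1:**
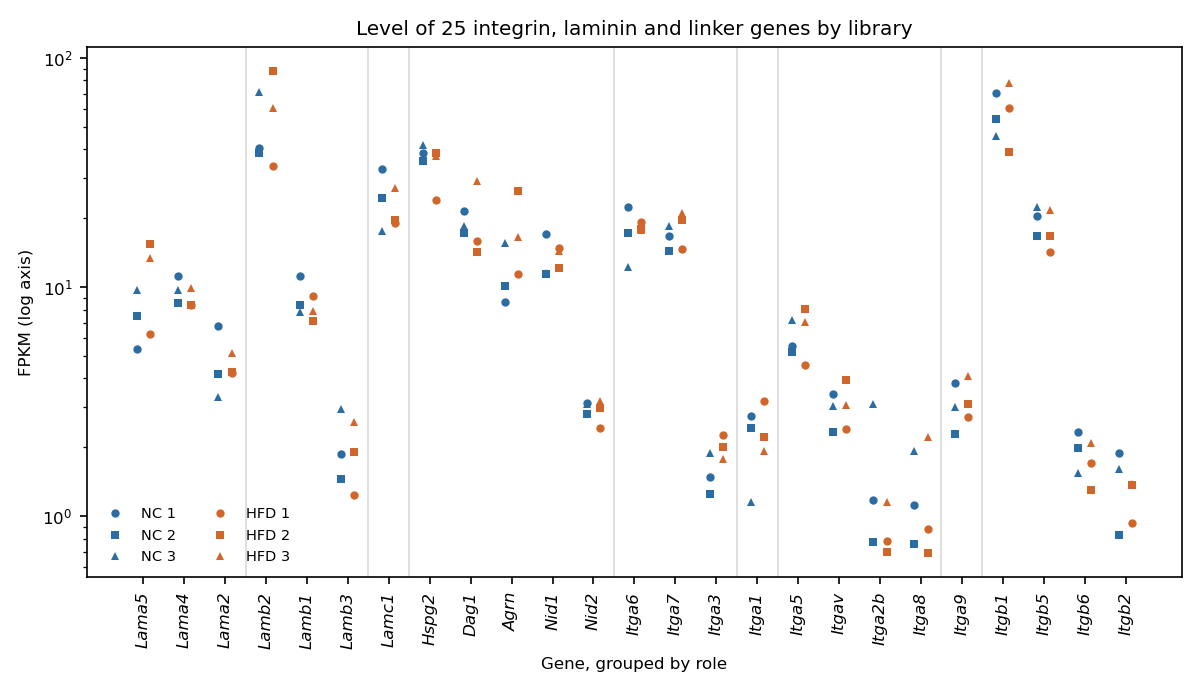
Level of each of the 25 tested genes in FPKM (log axis) by library, with genes grouped by role along the x axis, NC in blue and HFD in orange, and the replicate number given by the marker shape. In each of the 25 genes the blue and orange points overlap.

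**Figure D2:**
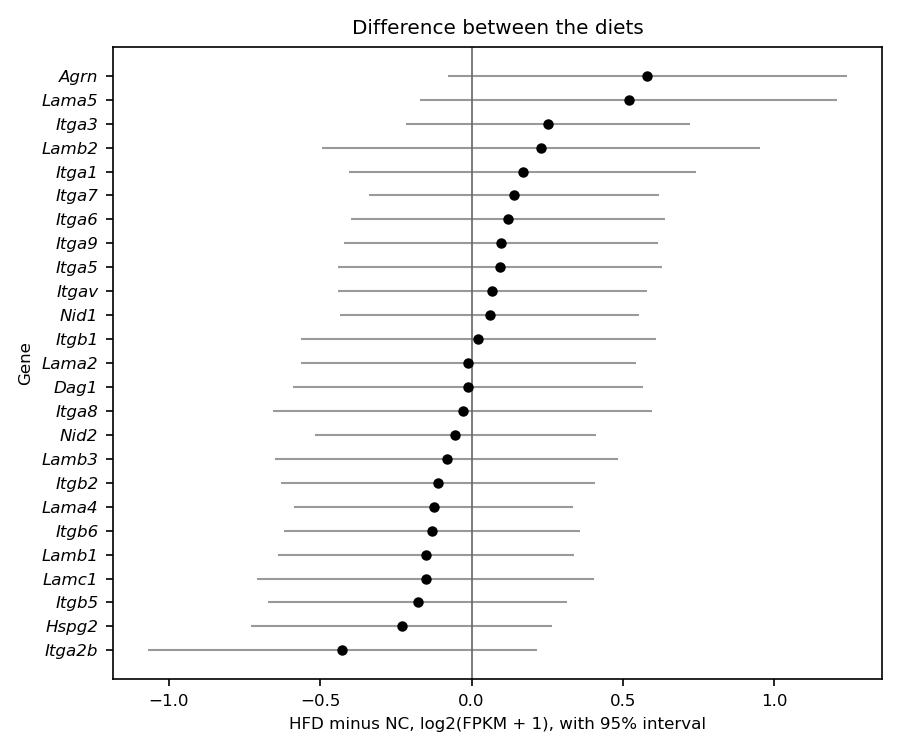
Difference between the diets for each tested gene (HFD minus NC, log2(FPKM + 1)), where points are limma estimates from 3 libraries a diet and bars are 95% intervals. The interval of each of the 25 genes includes 0, from Agrn at 0.58 to Itga2b at −0.43.

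Before the single chains, 1 feature of their sequence is given because the library-to-library spread went with it. Transcripts of these genes range in GC content (the share of G and C bases) from 42.8% for Itga1 to 60.9% for Hspg2 among the tested genes, and close relatives differ. The last 60 coding bases, stop codon included, of 5 chains are shown with G and C in capitals, from the longest coding transcript in GENCODE annotation of mm10.
Lamb1: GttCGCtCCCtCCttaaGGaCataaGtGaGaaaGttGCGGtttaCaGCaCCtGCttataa
Lamb2: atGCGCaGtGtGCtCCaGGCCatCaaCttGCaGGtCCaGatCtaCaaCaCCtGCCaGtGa
Lama5: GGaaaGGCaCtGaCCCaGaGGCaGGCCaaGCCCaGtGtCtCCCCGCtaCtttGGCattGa
Itgb1: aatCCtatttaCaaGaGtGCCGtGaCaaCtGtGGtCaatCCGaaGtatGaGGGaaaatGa
Itgb5: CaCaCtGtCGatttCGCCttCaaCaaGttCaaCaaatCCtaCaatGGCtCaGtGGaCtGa
The stretch holds 27 G or C bases in Lamb1 and 33 in Lamb2, 36 in Lama5, and 25 in Itgb1 and 27 in Itgb5. Over the whole transcript the GC content is 52.5% for Lamb1 and 58.8% for Lamb2, 47.7% for Lama2 and 59.9% for Lama5, and 44.8% for Itgb1 and 57.0% for Itgb5. For Itgb1 and Itgb5 the stretch, at 41.7% and 45.0%, differs less than the whole transcript does.

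In every one of the 6 libraries the deviation of a gene from its own mean was set against its GC content. Across the 25 genes, Pearson's r was −0.55 in NC 1, −0.38 in NC 2 and 0.56 in NC 3, and −0.60 in HFD 1, 0.49 in HFD 2 and 0.057 in HFD 3. These are descriptions across genes of the same libraries, and genes are not independent replicates. GC-rich chains were thus on the whole relatively low in NC 1, HFD 1 and, less so, NC 2. They were relatively high in NC 3 and HFD 2, so that libraries of the same diet stood on opposite sides. Because deviations are from the mean of the 6 libraries, low values in some libraries force high ones in others. How the sides fall within a diet is not fixed by this. Over all tested genes r had the same sign in 5 of the libraries and was smaller in size, at −0.17, −0.029 and 0.35 on NC and −0.31 and 0.28 in HFD 1 and HFD 2, and it was −0.20 in HFD 3. A setting with GC content regressed out of every library was added after the data were seen. In it 0 of the 25 genes passed (smallest limma adjusted p = 0.9991). At an unadjusted limma p of 0.05 there were 2 of 25, Agrn and Lama5, beside 465 of 11441 genes over the whole table. The log2 fold change of Lama5 was then 0.61 (SE 0.26). The diets no longer overlapped in 1 of the 25, Itga3, and that share over all genes is not given here.

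**Figure D3:**
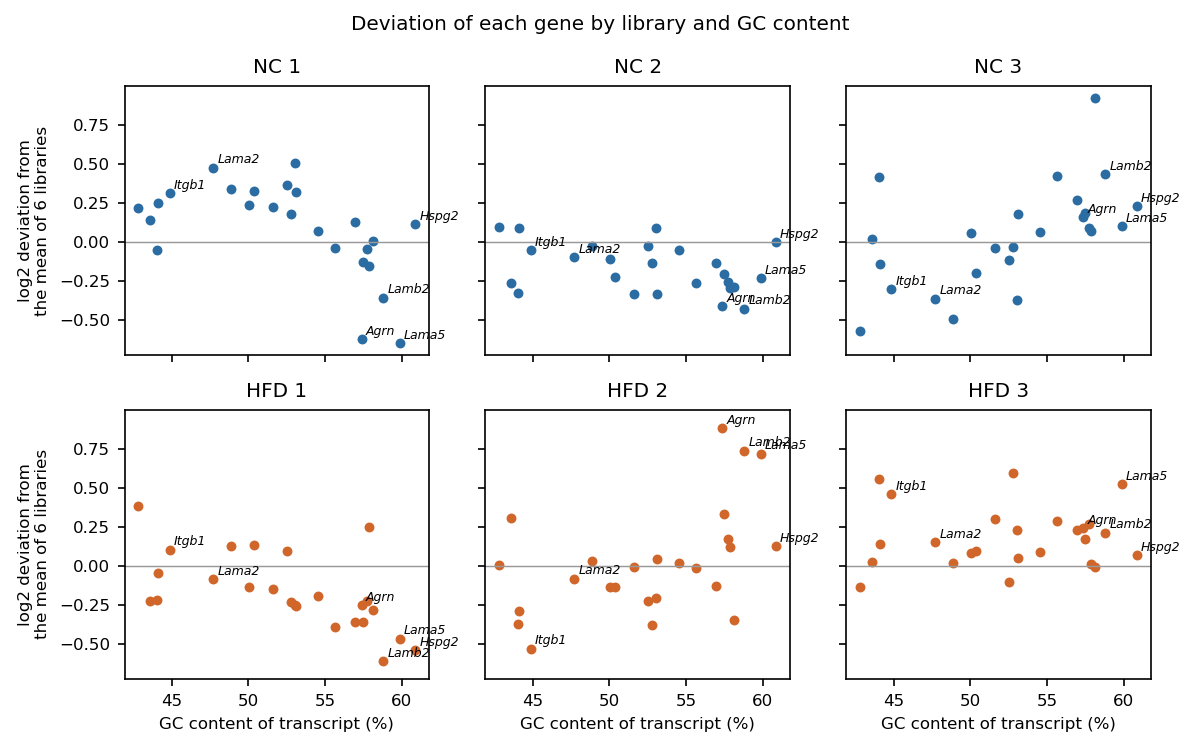
Deviation of each of the 25 tested genes from its mean over 6 libraries (log2(FPKM + 1), y axis) against the GC content of its longest coding transcript in percent (x axis), with 1 panel a library. Agrn, Lamb2 and Lama5 lie below their means in NC 1, NC 2 and HFD 1 and above them in the other libraries, furthest in HFD 2. Itgb1 lies low in HFD 2. Hspg2, the gene highest in GC content, lies low in HFD 1 but above its mean in NC 1.

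Laminin alpha chains decide which cells a laminin serves: Lama2 encodes the chain of muscle basement membrane, whose loss causes congenital muscular dystrophy, and Lama4 and Lama5 encode the chains of vessel walls. Lama5 was at 5.40, 7.53 and 9.75 FPKM in NC libraries 1 to 3, against 6.26, 15.5 and 13.4 FPKM in HFD libraries 1 to 3, and other values follow this order. HFD 2 and HFD 3 were above every NC library, and HFD 1 lay between NC 1 and NC 2, so the diets overlapped. The means were 7.56 ± 2.18 and 11.7 ± 4.85 FPKM (SD, n = 3 each), and the log2 fold change was 0.52 (SE 0.32, limma adjusted p = 0.9998). It was 0.29 without HFD 2 and 0.88 without HFD 1. Lama4 was at 11.2, 8.56 and 9.76 FPKM on NC, against 8.41, 8.39 and 9.93 FPKM on HFD (log2 fold change −0.13, SE 0.21). Its values lay close together, with the highest library at 1.33 times the lowest. Lama2 was at 6.74, 4.20 and 3.33 FPKM on NC, against 4.25, 4.26 and 5.17 FPKM on HFD (log2 fold change −0.011, SE 0.25). All 3 of its HFD values lay inside the NC range, and the estimate changed sign with the library left out, from −0.20 to 0.22.

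The order of the laminin alpha chains differed between libraries. Lama4 was the most abundant in NC 1, NC 2 and HFD 1, where it held 47.2%, 41.4% and 43.4% of the summed alpha chain FPKM, and Lama5 in HFD 2 and HFD 3, where it held 54.7% and 46.6%. In NC 3 the chains were nearly level, at 42.2% each. Lama2 held 14.4 to 28.5% on NC and 15.0 to 21.9% on HFD. Neither Lama3, a chain of epithelial basement membranes, nor Lama1, a chain of early embryonic ones, reached 1 FPKM in any library.

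Of the laminin beta chains, Lamb2, found in muscle and vessel laminins of the adult, was the most abundant in each library. Lamb2 was at 40.7, 38.7 and 71.2 FPKM on NC, against 34.0, 87.9 and 60.8 FPKM on HFD. The lowest and the highest of these were both HFD libraries. Its log2 fold change of 0.23 (SE 0.33) turned to −0.084 without HFD 2. Lamb1, the other widespread beta chain, was at 11.2, 8.34 and 7.78 FPKM on NC, against 9.16, 7.13 and 7.86 FPKM on HFD (log2 fold change −0.15, SE 0.22). The level of Lamb2 was 3.62, 4.64 and 9.15 times that of Lamb1 on NC and 3.71, 12.3 and 7.73 times on HFD. NC 1 and HFD 1 stood together at the low end and HFD 2 and NC 3 at the high end, the same sides as in the GC relation above. HFD 3, where r was 0.057, came next below NC 3. Both genes are among those that gave the GC relation, so this is not a separate observation. Lamb3, an epithelial chain, was lower, at 1.45 to 2.94 FPKM on NC and 1.24 to 2.58 FPKM on HFD.

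Lamc1, the gamma chain of most laminins, made up 95.7 to 98.4% of the gamma chain FPKM. It was at 33.0, 24.5 and 17.5 FPKM on NC, against 19.1, 19.7 and 27.1 FPKM on HFD (log2 fold change −0.15, SE 0.26). The HFD values lay inside the NC range, and the estimate was 0.063 without NC 1. The shares of Lamc1, Hspg2, Itga11 and Itgax in their classes were among those, of 42 computed, that did not overlap between the diets, and these shares were not tested.

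Among the linkers, Hspg2 encodes perlecan, a large heparan sulfate proteoglycan, and Agrn encodes agrin, which binds both laminin and dystroglycan and clusters receptors at the nerve-muscle synapse. Agrn was at 8.64, 10.2 and 15.6 FPKM on NC, against 11.5, 26.4 and 16.5 FPKM on HFD. HFD 2 and HFD 3 exceeded all NC libraries and HFD 1 did not. The means were 11.5 ± 3.64 and 18.1 ± 7.56 FPKM (SD, n = 3 each). At 0.58 (SE 0.30), the log2 fold change had the smallest unadjusted p of the 25 genes, and its limma adjusted p was 0.9998. Leaving out HFD 2 gave 0.29, and leaving out HFD 1 gave 0.85. With GC content regressed out it was 0.63 (SE 0.25, limma adjusted p = 0.9991).

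Hspg2 was at 38.5, 35.5 and 41.8 FPKM on NC, against 24.1, 38.7 and 37.3 FPKM on HFD, and HFD 1 was the single low library. The log2 fold change was −0.23 (SE 0.23) with all libraries and −0.018 without HFD 1. The ratio of Agrn to Hspg2 was 0.224, 0.287 and 0.373 on NC and 0.477, 0.680 and 0.443 on HFD. It was the only 1 of 8 ratios between chains whose diets did not overlap, and it was picked after the values were seen and not tested. Nid1, which encodes nidogen, the bridge from laminin to collagen IV, was at 17.2, 11.4 and 11.6 FPKM on NC, against 14.8, 12.2 and 14.5 FPKM on HFD (log2 fold change 0.060, SE 0.23). Its estimate was −0.035 without NC 2 and 0.24 without NC 1. Nid2 was lower, at 2.80 to 3.12 FPKM on NC and 2.44 to 3.18 FPKM on HFD, with the narrowest spread of the tested genes, its highest library being 1.30 times its lowest. Its exons overlap those of Rtraf on the opposite strand over 437 bases, Rtraf was at a mean of 43.9 FPKM, and whether strand was used in counting is not stated. The value of Nid2 is uncertain for that reason.

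Dag1 encodes dystroglycan, the laminin receptor at the core of the dystrophin complex. It was at 21.5, 17.2 and 18.5 FPKM on NC, against 16.0, 14.3 and 29.1 FPKM on HFD. HFD held both the lowest and the highest libraries. The log2 fold change was −0.011 (SE 0.27), and leaving out 1 library moved it between −0.31 and 0.18.

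**Figure D4:**
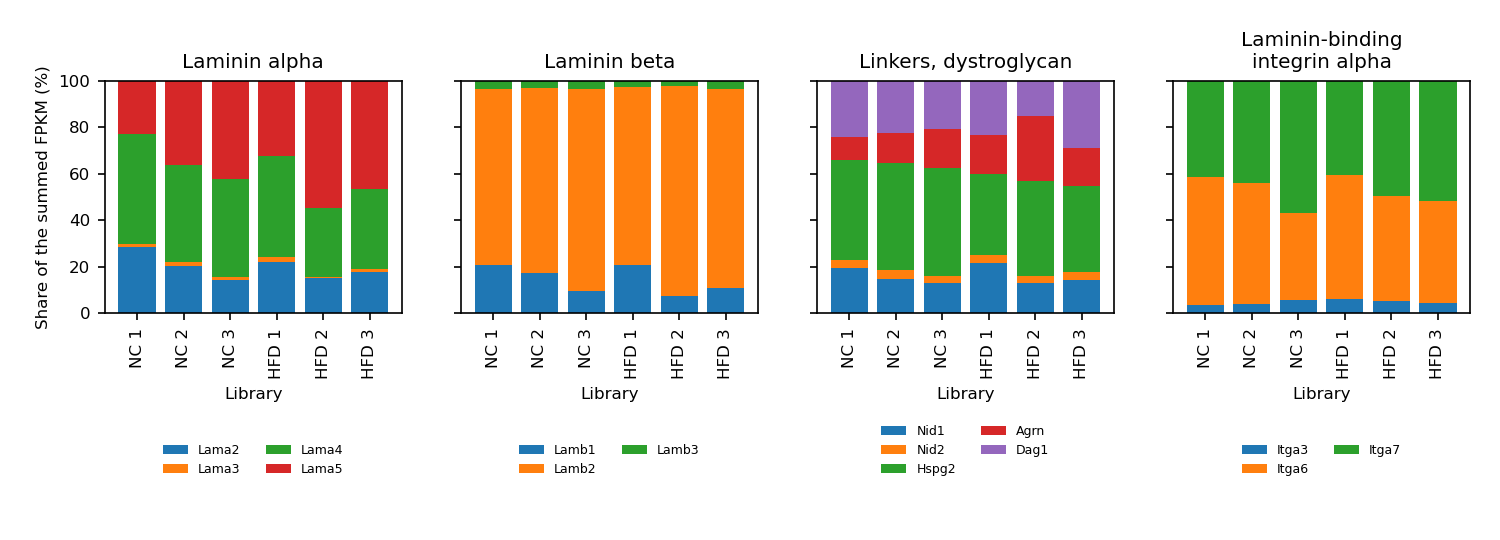
Share of each chain in the summed FPKM of its class in percent, by library, for laminin alpha chains, laminin beta chains, linkers with dystroglycan, and laminin-binding integrin alpha chains (chains at 1% or less in each library are not drawn). Lama5 takes 22.8 to 42.2% of the alpha chains on NC and 32.3 to 54.7% on HFD, and Hspg2 takes 43.3 to 46.1% of the linkers on NC and 35.0 to 41.0% on HFD.

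Of the integrin alpha chains that bind laminin, Itga7 encodes the main one of cardiac and skeletal muscle and Itga6 one of endothelium and epithelium. Itga7 was at 16.8, 14.4 and 18.5 FPKM on NC, against 14.7, 19.7 and 21.1 FPKM on HFD (log2 fold change 0.14, SE 0.22). Itga6 was at 22.5, 17.2 and 12.2 FPKM on NC, against 19.3, 18.0 and 17.8 FPKM on HFD (log2 fold change 0.12, SE 0.24). Over the 6 libraries the means were 17.5 FPKM for Itga7 and 17.8 FPKM for Itga6, a gap smaller than the spread of either, and which was higher changed between libraries. The HFD values of Itga6 fell inside the NC range, and its estimate was −0.096 without NC 3. Itga7 gave 0.041 without HFD 3 and 0.29 without HFD 1. Itga3, the third chain of this kind, was at 1.48, 1.25 and 1.90 FPKM on NC, against 2.27, 2.002 and 1.79 FPKM on HFD. HFD 1 and HFD 2 lay above each NC library and HFD 3 lay below NC 3 (log2 fold change 0.25, SE 0.22, and 0.31 with GC content regressed out). The summed level of the 3 chains was 35.4 ± 4.61 on NC, against 38.9 ± 2.33 FPKM on HFD (SD, n = 3 each), with overlapping libraries.

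Receptors for fibronectin and other ligands carrying the RGD peptide were lower. Itga5, the fibronectin receptor chain, was at 5.56, 5.22 and 7.16 FPKM on NC, against 4.58, 8.02 and 7.05 FPKM on HFD (log2 fold change 0.094, SE 0.25, and −0.049 without HFD 2). Itgav, which pairs with several beta chains and activates latent TGF-beta, was at 2.34 to 3.41 FPKM on NC and 2.42 to 3.95 FPKM on HFD. Itga8, a chain of smooth muscle and other contractile mesenchymal cells, was at 0.754 to 1.94 and 0.692 to 2.22 FPKM. The platelet chain gene Itga2b was at 1.177, 0.774 and 3.10 FPKM on NC, against 0.777, 0.702 and 1.16 FPKM on HFD. NC 3 was well above the other 5 libraries, and the log2 fold change of −0.43 (SE 0.30) was −0.073 without it. Of 10 platelet markers, 4 were tested and all 4 had lower estimates on HFD, beside 53.1% of all tested genes. Of the 4, 2 had an unadjusted limma p under 0.05 (against 2.30% in that direction), and 2 had HFD below NC (against 4.88%). The summed level of the 10 markers was 33.5 to 74.1 FPKM on NC and 23.6 to 30.2 FPKM on HFD. That sum was highest in NC 1, not in NC 3, and the part of platelets in the value of Itga2b was not tested. In such bulk samples fewer cells of a type and less RNA per cell cannot be told apart.

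Collagen-binding chains were low. Itga1, the chain for basement membrane collagen on vessel and mesenchymal cells, was at 2.73, 2.43 and 1.16 FPKM on NC, against 3.18, 2.21 and 1.92 FPKM on HFD (log2 fold change 0.17, SE 0.26, and −0.075 without NC 3). Itga9, which binds tenascin and other matrix proteins, was at 3.82, 2.28 and 3.02 FPKM on NC, against 2.72, 3.10 and 4.09 FPKM on HFD (log2 fold change 0.096, SE 0.24, and −0.045 without NC 2). Itga10 averaged 0.928 FPKM, just under the level needed for a test.

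Itga11, a fibroblast receptor for fibrillar collagen, was the only 1 of the 17 untested genes whose diets did not overlap, and it is named because its values were seen. Among all tested genes 8.13% did not overlap (4.88% with HFD below), and no such share is given here over all untested genes. Itga11 was at 0.616, 0.659 and 0.656 FPKM on NC, against 0.0822, 0.352 and 0.277 FPKM on HFD. Each HFD library lay below each NC library, at low levels whose read depth is unknown. When genes were not filtered on level, its difference on the log2(FPKM + 1) scale was −0.42 (SE 0.11, limma adjusted p = 0.9836). At these levels that scale understates the change, and the ratio of the mean FPKM on HFD to that on NC was 0.37. Of 8 fibroblast markers 7 had lower estimates on HFD, beside 53.1% of all tested genes. An unadjusted limma p under 0.05 was found in 3 of the 8, against 3.62%, and HFD below NC in 1, against 4.88%. The summed level of these markers was 394 to 711 FPKM on NC and 313 to 616 FPKM on HFD. Their part in the value of Itga11 was not tested.

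Beta chains set which integrins a cell can form. Itgb1, the partner of the laminin- and collagen-binding alpha chains, was the most abundant of the 42 genes by mean level and ranked 778 among 23808 genes. It was at 70.5, 54.5 and 45.8 FPKM on NC, against 60.8, 38.8 and 78.1 FPKM on HFD. The lowest and the highest value were both on HFD, and the log2 fold change of 0.022 (SE 0.27) went from −0.20 without HFD 3 to 0.29 without HFD 2. Itgb5, a partner of the Itgav chain, followed at 20.4, 16.8 and 22.5 FPKM on NC, against 14.2, 16.8 and 21.8 FPKM on HFD (log2 fold change −0.18, SE 0.23, and −0.042 without HFD 1). Together these 2 genes held most of the beta chain FPKM, Itgb1 with 62.4 to 76.9% and Itgb5 with 17.9 to 30.7%. Itgb6, an epithelial chain, was at 1.55 to 2.34 FPKM on NC and 1.30 to 2.10 FPKM on HFD. The leukocyte chain gene Itgb2 was at 1.88, 0.831 and 1.62 FPKM on NC, against 0.934, 1.38 and 1.39 FPKM on HFD, with a log2 fold change of −0.11 (SE 0.24).

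The leukocyte alpha chains Itgal, Itgam, Itgax, Itgad and Itgae were each below 1 FPKM in all libraries and were not tested, although other leukocyte genes were well measured. All 12 macrophage markers were tested, and 11 of them had lower estimates on HFD, beside 53.1% of all tested genes (median log2 fold change −0.33). Of the 12, 5 had an unadjusted limma p under 0.05, against 3.62% of all tested genes. HFD lay below NC in 3 of them, against 4.88%. Their summed level was 218.7 to 328 FPKM on NC and 164 to 218.5 FPKM on HFD. Itgam, the chain of macrophages and neutrophils, was at 0.704, 0.367 and 0.524 FPKM on NC, against 0.458, 0.397 and 0.647 FPKM on HFD. Itgax, a chain of dendritic cells and some macrophages, was at 0.350, 0.0473 and 0.0960 FPKM on NC, against 0.301, 0.363 and 0.369 FPKM on HFD. All 8 lymphocyte markers fell below the level for a test. Of the remaining untested genes, Itga4, Itgb3, Itgb4, Itgb7, Itgb8, Lama3 and Lamc3 averaged between 0.0699 and 0.640 FPKM. Itga2, Lama1, Itgad and Itgae were listed at 0 in 1 or more libraries.

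Related genes outside the families were taken from 5 lists, which were also drawn up with earlier results of these data known. None of the 95 tested genes of these lists passed in the fit without covariates (limma adjusted p over all tested genes). With a replicate block some of them did, as given at the end. In the list of collagens and other components of basement membranes, 8 of 14 tested genes had lower estimates on HFD (57.1%, against 53.1% of all tested genes), 0 of 14 had an unadjusted p under 0.05, and the median log2 fold change was −0.16. Col4a1 and Col4a2 encode the chains of collagen IV, the second network of every basement membrane. Col4a1 was at 48.5, 48.5 and 26.3 FPKM on NC, against 35.8, 33.5 and 24.1 FPKM on HFD (log2 fold change −0.36, SE 0.27). Col4a2 was at 32.1, 31.1 and 22.6 FPKM on NC, against 24.0, 28.6 and 18.7 FPKM on HFD (−0.26, SE 0.23). Both were lowest within their diet in NC 3 and HFD 3. Col15a1, a collagen that joins basement membranes to the surrounding matrix, was at 15.3, 13.9 and 15.4 FPKM on NC, against 7.53, 12.8 and 11.9 FPKM on HFD (−0.46, SE 0.23), with each HFD library below each NC library. The same held for Sparc, which encodes a collagen-binding matricellular protein (204 ± 30.3 and 166 ± 9.50 FPKM, SD, n = 3 each, −0.29, SE 0.20). These 2 of 14 (14.3%) stand beside 4.88% of all tested genes with HFD below NC. Col18a1, the source of endostatin, had a log2 fold change of −0.50 (SE 0.24).

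Other ligands of integrins had lower estimates on HFD in 16 of 19 tested genes (84.2%) with a median log2 fold change of −0.26. Of the 19, 4 had an unadjusted p under 0.05, all with lower estimates (21.1%, against 2.30% of all tested genes in that direction), and 3 did not overlap, Col3a1, Ccn1 and Fbn1, all with HFD below (15.8%, against 4.88% of all tested genes). The 4 were the fibrillar collagen genes Col3a1 (−1.38, SE 0.28, limma adjusted p = 0.352) and Col1a1 (−0.98, SE 0.31), Thbs1, which encodes thrombospondin (−1.23, SE 0.41), and Ccn1, which encodes a matricellular protein (−0.74, SE 0.25). Ccn1 and Fbn1, the gene of fibrillin, are named after their values were seen. Col3a1 was at 80.5, 54.1 and 92.0 FPKM on NC, against 29.4, 18.7 and 38.4 FPKM on HFD. Thbs1 was at 3.13, 1.51 and 7.05 FPKM on NC, against 0.469, 0.385 and 2.15 FPKM on HFD, and its log2 fold change was −0.79 without NC 3. Fn1, the gene of fibronectin, was at 9.18, 6.56 and 11.6 FPKM on NC, against 7.74, 6.67 and 10.3 FPKM on HFD (−0.12, SE 0.25). These ligands include 3 genes that also stand among the fibroblast markers, Col1a1, Col1a2 and Col3a1.

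Of the genes of integrin activation and the adhesion complex, 11 of 25 tested had higher and 14 lower estimates (median −0.075). At an unadjusted limma p under 0.05 there were 0 of 25. HFD lay below NC in 1 (4.0%, against 4.88% of all tested genes, a share near the background). That gene was Itgb1bp2, which encodes a muscle protein that binds the beta chain tail and is named after its values were seen. Tln1, the talin that activates integrins, was at 13.4, 11.8 and 17.7 FPKM on NC, against 10.6, 13.6 and 14.4 FPKM on HFD (−0.13, SE 0.23). Ilk, the scaffold on the beta chain tail, was at 48.4, 45.1 and 50.9 FPKM on NC, against 38.3, 59.4 and 44.3 FPKM on HFD (−0.044, SE 0.22). The smallest unadjusted p values belonged to Krit1 (0.34, SE 0.23), Tns1 (0.33, SE 0.26) and the leukocyte gene Fermt3 (−0.32, SE 0.25). Tns1, a tensin that binds beta chain tails, was highest in HFD 2, at 74.2 FPKM, and NC 3 was the highest NC library, at 59.9 FPKM.

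Partners of dystroglycan and the enzymes that glycosylate it for laminin binding split evenly, with 12 of 24 higher and 12 lower (median −0.0038), and 0 of 24 had an unadjusted p under 0.05 or diets that did not overlap. Dmd, the gene of dystrophin, was at 6.75, 6.07 and 6.06 FPKM on NC, against 7.98, 4.95 and 10.9 FPKM on HFD (0.24, SE 0.26). As for Dag1, HFD 2 was the lowest and HFD 3 the highest library. Dtnb, a dystrobrevin, had a log2 fold change of −0.37 (SE 0.26). Non-integrin matrix receptors and tetraspanins had lower estimates in 11 of 13 tested genes (median −0.15), with 1 at an unadjusted p under 0.05 (7.69%, against 2.30% of all tested genes in that direction) and 2 with HFD below NC (15.4%, against 4.88%). Sdc4, a syndecan of focal adhesions, was at 5.60, 4.99 and 9.05 FPKM on NC, against 2.33, 3.13 and 4.97 FPKM on HFD (−0.76, SE 0.28). The tetraspanin genes Cd63 and Cd9 had log2 fold changes of −0.39 (SE 0.19) and −0.40 (SE 0.23).

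**Figure D5:**
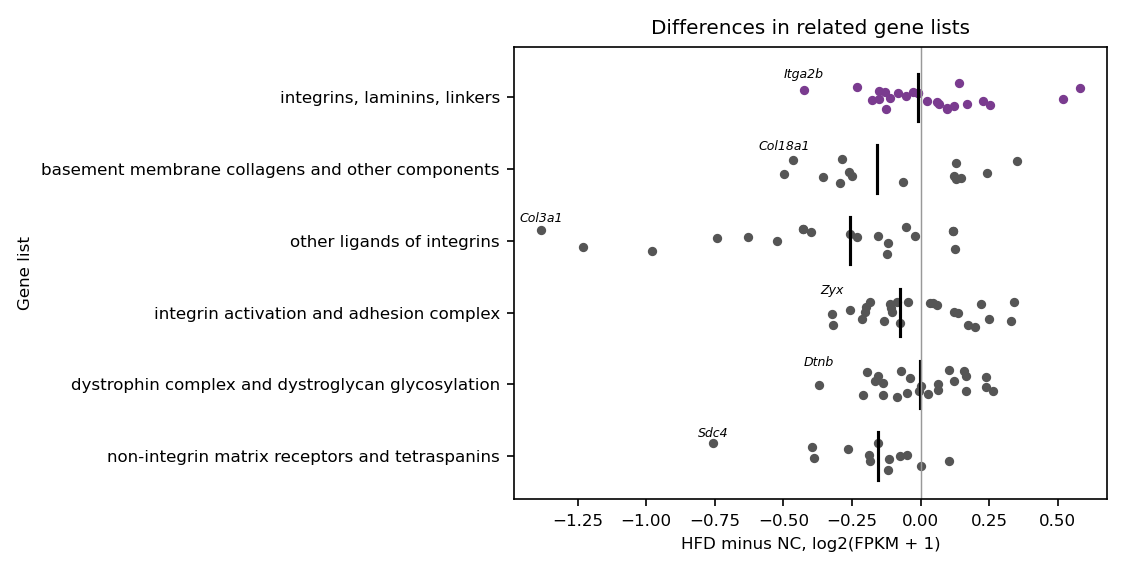
Difference between the diets (HFD minus NC, log2(FPKM + 1), x axis) of each tested gene in the integrin, laminin and linker families and in 5 lists of related genes, with vertical bars at the median of each row and the lowest gene of each row named. The families centre on −0.011, and the other ligands of integrins lie lower, at a median of −0.26 with Col3a1 at −1.38.

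Markers of cells that make these chains were set beside them. Cardiomyocyte markers, from cells that make the Lama2 and Itga7 chains and dystroglycan, had lower estimates in 10 of 12 tested genes (median log2 fold change −0.24). Over all tested genes 53.1% were lower. Of the 12 markers, 2 had HFD below NC, against 4.88% of all tested genes, the troponin genes Tnnt2 and Tnni3, named after their values were seen. Endothelial markers, from cells that make the Lama4 and Lama5 chains, had higher estimates in 10 of 11 tested genes (median log2 fold change 0.14). Of these 11 markers, 2 had HFD above NC, against 3.25% of all tested genes. Their summed level was 462 to 517 FPKM on NC and 477, 688 and 464 FPKM in HFD 1, HFD 2 and HFD 3. The high sum of HFD 2 rested on Egfl7, at 344 FPKM there and 137 to 229 FPKM in the other libraries. Without Egfl7 the sums were 234 to 360 FPKM on NC and 298 to 345 FPKM on HFD. Pericyte and smooth muscle markers had lower estimates in 10 of 11 (median −0.16), with sums of 270 to 349 FPKM on NC and 211 to 270 FPKM on HFD. HFD lay below NC in 2 of these 11, against 4.88% of all tested genes. The part of these cell types in the values of the laminins and integrins was not tested.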

How the data were processed

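The authors deposited 1 table of FPKM values per gene and library, with no program or use of strand stated for them. Tools listed in the submitters' processing notes, without a role, are HISAT2 2.2.1, HTSeq 0.13.5, Trimmomatic 0.38, FastQC 0.11.9, DESeq2 1.18.1 and R 3.4.1, and the build is mm10. Columns were matched to samples by the label descriptions. Symbols were found for 23718 of 23808 identifiers. Among genes under 0.3 FPKM, 2.50 to 5.32% of ratios to NC 1 matched the commonest one to 0.02 (log2), so no steps of 1 read were found and no count test was run.

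From these values log2(FPKM + 1) was computed, genes averaging under 1 FPKM were left out, and diets were compared without covariates in limma 3.58.1 (R 4.3.3; lmFit, eBayes with trend, two-sided, Benjamini-Hochberg over 11456 genes, threshold 0.05). The fit was tested on simulated data. Members and gene lists were chosen with earlier results of these data known. Genes named with full values were those without overlap between diets, the 6 in each direction with the smallest p, the most abundant of each role, 6 fixed members, and in each related list the 3 with the smallest p plus 6 fixed genes. GC content is that of the longest coding transcript in GENCODE M21. Of the listed genes, Fermt1 and Myh4 were not analysed here. Python 3.11.15 with matplotlib 3.10.9 drew the figures. Alternatives were other pseudocounts, filters, scalings and eBayes settings, library weights, an atrial covariate, a replicate block and each library left out. Fits with GC content or GC content and length regressed out (splines with 4 degrees of freedom) were added after the data were seen. Some items that the naming rule covers are not reported here.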

Additional observations from a re-analysis of the deposited data

How the results depend on the processing

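None of the 25 genes passed in any of the settings run, and the sign of 9 of the 19 named family genes was kept throughout. Of the 42 genes 23 were lower without a filter, and 6 of 14 at a filter of 5 FPKM. Groups did not overlap in 1 gene without a filter (Itga11), in 1 with GC content regressed out (Itga3), and in 0 to 3 with 1 library left out. Shares over all genes in these settings are not given here. With a library left out fewer values have to lie apart, so these counts cannot be set beside the main one. Genes passing over the whole table numbered 73 with the replicate block and 89 with the block and GC content regressed out, 1 with the atrial covariate, and 0 to 1 with a library left out. Under either block fit 3 related genes passed, Col3a1, Col1a1 and Thbs1. With the block the standard errors of the 25 family genes were nearly alike, at 0.25 to 0.27, beside 0.21 to 0.33 in the main fit. Spread was thus largely pooled across genes there, and a gene's own spread counted for little in the calls under the block. Same-numbered libraries correlated at 0.193, 0.0864 and 0.275 in their deviations, and other-numbered ones at −0.361 to 0.250. NC 1 and NC 3 correlated best with the HFD library of the same number, and NC 2 with HFD 1 (0.250). From the HFD side only HFD 3 correlated best with its own number. HFD 1 did so with NC 2, and HFD 2 with NC 3 (0.0927). The labels do not say what the number stands for. Whether same-numbered libraries share more than a number cannot be told from these values.

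Signs turned as follows. Dag1 was 0.074, Lama2 0.063 and Ilk 0.044 with libraries scaled to the same FPKM sum without mitochondrially encoded genes. Dag1 was 0.0011 with median-of-ratios scaling, 0.040 with quantile normalization, 0.043 with the atrial covariate and 0.0064 with GC content regressed out (with and without the block). Lama2 was 0.0012 with median-of-ratios scaling. Itgb1 was −0.048 with library weights, −0.037 with GC content regressed out (with and without the block) and −0.074 with length as well, where Nid1 was −0.027 and Ilk 0.048, and Ilk was 0.031 with quantile normalization. With 1 library left out, log2 fold changes ranged from −0.31 to 0.18 for Dag1, −0.20 to 0.22 for Lama2, −0.20 to 0.29 for Itgb1, −0.37 to 0.063 for Lamc1, −0.084 to 0.59 for Lamb2, −0.075 to 0.32 for Itga1, −0.049 to 0.30 for Itga5, −0.096 to 0.32 for Itga6, −0.045 to 0.23 for Itga9, −0.035 to 0.24 for Nid1, −0.32 to 0.055 for Fn1, −0.25 to 0.022 for Tln1 and −0.22 to 0.093 for Ilk. Read depth is unknown, so no limit from counting is given. The cause of these changes was not tested.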
